A study of Mus musculus with 19 samples.

Results

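MYC, its network partners and the genes that build ribosomes were followed as 1 set of 40 mouse genes across 6 groups of sorted CD4+ T cells on 19 arrays. The genes were chosen by a list of symbols, each was read from whichever of its probe sets was brightest on average, and a gene was kept where the log2 value reached 4 or more on at least 2 arrays. Of the 40 genes, 37 were kept, out of 9928 genes tested in all. Mycn, a close relative of Myc, stayed between 2.30 and 2.98 on all 19 arrays and was not kept, and Npm3 and Eif2s1 are not analysed here. Of the 37 kept genes, 36 reached log2 4 on every array, with Nle1 doing so on 17.

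All cells came from C57BL/6J mice, of unstated age. CXCR5hi PD-1hi cells, the surface type of follicular helper T (Tfh) cells, were sorted as YFP-positive (n = 4, replicate 4 at day 10 and the others at day 7) or YFP-negative (n = 4, replicates 1 and 4 at day 10, 2 and 3 at day 7) for a BCL6-YFP reporter. Further CXCR5hi PD-1hi cells were not split by the reporter and were of Bcl6yfp/+ (n = 3, day 7) or Bcl6+/+ (n = 3, replicates 1 and 2 at day 10, 3 at day 7) genotype. CXCR5lo PD-1lo cells (n = 3, day 7) were the non-Tfh cells of the same responses, and naive CD4+ CD44lo CD62Lhi cells (n = 2) were spleen cells of mice that had not been immunized, whereas the other groups came from draining lymph nodes. The protocol text, shared by all samples, describes OT-II cells (helper cells whose transgenic receptor recognises ovalbumin) carrying Bcl6yfp/+, moved into congenic mice that received NP-OVA in CFA under the skin. It does not say how far it covers the Bcl6+/+ and naive cells. Days count from immunization.

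MYC binds DNA as a pair with MAX, mostly at the letters CACGTG, the canonical E-box, and drives genes of growth and metabolism. MXD4 and MXI1 also pair with MAX and repress at the same sites, so they oppose MYC. Ribosome production starts in the nucleolus, where RNA polymerase I copies the ribosomal RNA genes, small nucleolar RNPs modify the copy, and large assemblies (the small subunit processome and the large subunit assembly factors) cut and fold it. In T cells, Myc is switched on by antigen receptor signals and cytokines, and cell growth before division depends on it.

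The following sequences show the E-box in the promoters of the listed genes, since it is the element through which MYC, MAX, MXD4 and MXI1 act. CACGTG reads the same on both strands. It was searched in RefSeq windows (GRCm38.p6) of 250 bases before to 50 bases after each annotated start, counting a gene once if the window of any of its starts held it. Windows were at hand for 30 of the 37 genes and 9 of these 30 (30%) held the motif, against 992 of 8145 tested genes with a window (12.2%) and 2187 of all 27025 genes with a window (8.09%). The stretches are written 5′ to 3′ on the gene's strand with the E-box in capitals.
Max, chr12:76962234-76962263, minus strand: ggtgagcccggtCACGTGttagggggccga
Mxd4, chr5:34187912-34187941, minus strand: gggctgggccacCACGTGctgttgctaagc
Utp20, chr10:88826765-88826789, minus strand: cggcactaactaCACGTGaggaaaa
Wdr43, chr17:71616220-71616249, plus strand: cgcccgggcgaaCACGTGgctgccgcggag
Pes1, chr11:3963965-3963994, plus strand: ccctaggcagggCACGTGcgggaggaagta
Nop2, chr6:125131811-125131840, plus strand: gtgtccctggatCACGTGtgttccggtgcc
Nle1, chr11:82908355-82908384, minus strand: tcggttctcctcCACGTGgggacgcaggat
Eif4a1, chr11:69672595-69672624, minus strand: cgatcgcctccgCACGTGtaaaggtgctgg
Eif5a, chr11:69921443-69921472, minus strand: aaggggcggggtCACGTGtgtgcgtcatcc
Eif5a (start further downstream), chr11:69920791-69920820, minus strand: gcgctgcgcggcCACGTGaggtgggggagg
Counted from the annotated start whose window held it, the first base of the motif is at -3 in Max, -60 in Nop2 and -219 in Mxd4. It is downstream at 3 in Pes1, 18 in Wdr43, 24 in Nle1 and 38 in Utp20. For Max, Wdr43, Nle1 and both Eif5a entries this start lies inside the gene, downstream of its outermost start. A match is a description of letters and not of a bound site.

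Mxd4 and Polr1b were called in opposite directions against naive cells below, so the 250 bases before an annotated start of each are printed. The Polr1b start used lies downstream of the gene's outermost start at 129100970, so its stretch runs past that position. The Mxd4 stretch holds 1 E-box, in capitals, and the Polr1b window holds none.
Mxd4, chr5:34187711-34187960, minus strand: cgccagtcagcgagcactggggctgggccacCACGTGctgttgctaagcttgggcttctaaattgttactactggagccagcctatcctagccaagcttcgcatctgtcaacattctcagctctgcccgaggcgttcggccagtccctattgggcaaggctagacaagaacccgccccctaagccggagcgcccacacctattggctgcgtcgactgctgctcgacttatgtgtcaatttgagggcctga
Polr1b, chr2:129100746-129100995, plus strand: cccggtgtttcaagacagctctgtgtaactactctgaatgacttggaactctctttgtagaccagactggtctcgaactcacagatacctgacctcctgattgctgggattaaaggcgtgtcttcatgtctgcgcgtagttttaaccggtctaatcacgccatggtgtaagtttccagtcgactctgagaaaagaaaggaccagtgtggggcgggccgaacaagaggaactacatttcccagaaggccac

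The arrays had limits that touch every value below. The deposited columns did not share 1 distribution and fell into 7 sets of columns that were normalized alike. Sets 1, 2 and 3 were replicates 1, 2 and 3 of both YFP groups and of CXCR5lo PD-1lo cells. Replicate 4 of both YFP groups and naive replicate 1 formed set 4. Bcl6yfp/+ replicate 1 and naive replicate 2 formed set 5, set 6 held replicates 2 and 3 of both Bcl6 genotypes, and set 7 held Bcl6+/+ replicate 1. Each comparison is for this reason given a second time, blocked on the set. The 4 arrays of set 6 were nearly alike: their 6 pairs differed by 0.144 to 0.194 log2 on average, against 0.385 to 0.971 for the 20 pairs of 1 group outside set 6. Those 20 pairs all cross sets. Pairs inside another set, all of different groups, went down to 0.285 (replicate 4 of both YFP groups). They also shared 623 to 786 identical values, but so did arrays far apart: Bcl6yfp/+ replicate 1 and naive replicate 2, of set 5, shared 881 and differed by 0.739. The blocked fit is also given without set 6, an alternative chosen after seeing the data. Day 10 arrays of the YFP groups, all arrays of the Bcl6 genotypes and naive replicate 2 carried Y-linked transcripts (Eif2s3y at 12.9 to 13.8), and all other arrays carried Xist (13.0 to 14.1). T cell genes were high in every group, with a summed level of Cd3e, Cd3g, Cd4 and Cd28 of 15.5 to 16.5.

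Myc, on chromosome 15 (61985341 to 61990361, GRCm38.p6), was measured by 1 probe set. Its log2 values were 6.56, 8.59, 7.41 and 6.56 in YFP-positive cells and 7.81, 8.31, 8.13 and 7.10 in YFP-negative cells. They were 7.80, 7.29 and 7.08 in Bcl6yfp/+ cells and 8.82, 6.92 and 7.07 in Bcl6+/+ cells. CXCR5lo PD-1lo cells had 9.58, 10.10 and 9.36, and naive cells had 9.57 and 9.93. Every array of the 4 Tfh groups lay below every array of the CXCR5lo PD-1lo and naive groups. From low to high, the Tfh groups averaged 7.28 ± 0.96 (YFP-positive, n = 4), 7.39 ± 0.37 (Bcl6yfp/+, n = 3), 7.60 ± 1.06 (Bcl6+/+, n = 3) and 7.84 ± 0.53 (YFP-negative, n = 4; errors are SD), and these neighbours did not differ beyond their spread. CXCR5lo PD-1lo cells (9.68 ± 0.38, n = 3) and naive cells (9.75 ± 0.26, n = 2) followed, and did not differ from each other beyond their spread. In bulk samples, fewer cells with Myc transcript and less transcript per cell cannot be told apart.

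Mxd4, a MAX partner that opposes MYC (chromosome 5, 34176580 to 34187710), ran the other way. Its log2 values were 13.50, 13.04, 12.84 and 13.44 in YFP-positive cells and 13.64, 13.10, 13.08 and 13.12 in YFP-negative cells. Bcl6yfp/+ cells had 12.93, 13.37 and 13.47, and Bcl6+/+ cells had 13.99, 13.36 and 13.62. CXCR5lo PD-1lo cells had 13.29, 12.40 and 12.68, against 11.50 and 12.03 in naive cells. Naive cells were lowest on both arrays, and CXCR5lo PD-1lo cells overlapped the Tfh groups.

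Max itself (chromosome 12, 76937269 to 76962323) was at 13.17, 13.55, 12.84 and 13.12 in YFP-positive cells and 13.40, 13.40, 12.78 and 13.06 in YFP-negative cells. It was at 12.77, 13.89 and 13.89 in Bcl6yfp/+ cells and 13.02, 13.91 and 13.89 in Bcl6+/+ cells. CXCR5lo PD-1lo cells had 13.07, 13.47 and 12.83, against 12.39 and 12.48 in naive cells. Naive cells were again below all arrays of the other groups. Mxi1, the other opponent of MYC, averaged 10.52 ± 0.29 in YFP-positive cells, 11.22 ± 0.36 in YFP-negative cells, 10.89 ± 0.26 in Bcl6yfp/+ cells, 11.20 on all 3 arrays of Bcl6+/+ cells, 11.02 ± 0.21 in CXCR5lo PD-1lo cells and 11.20 ± 0.34 in naive cells. All YFP-positive arrays were below both naive arrays, without passing the test (adjusted p = 0.064, limma).

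**Figure D1:**
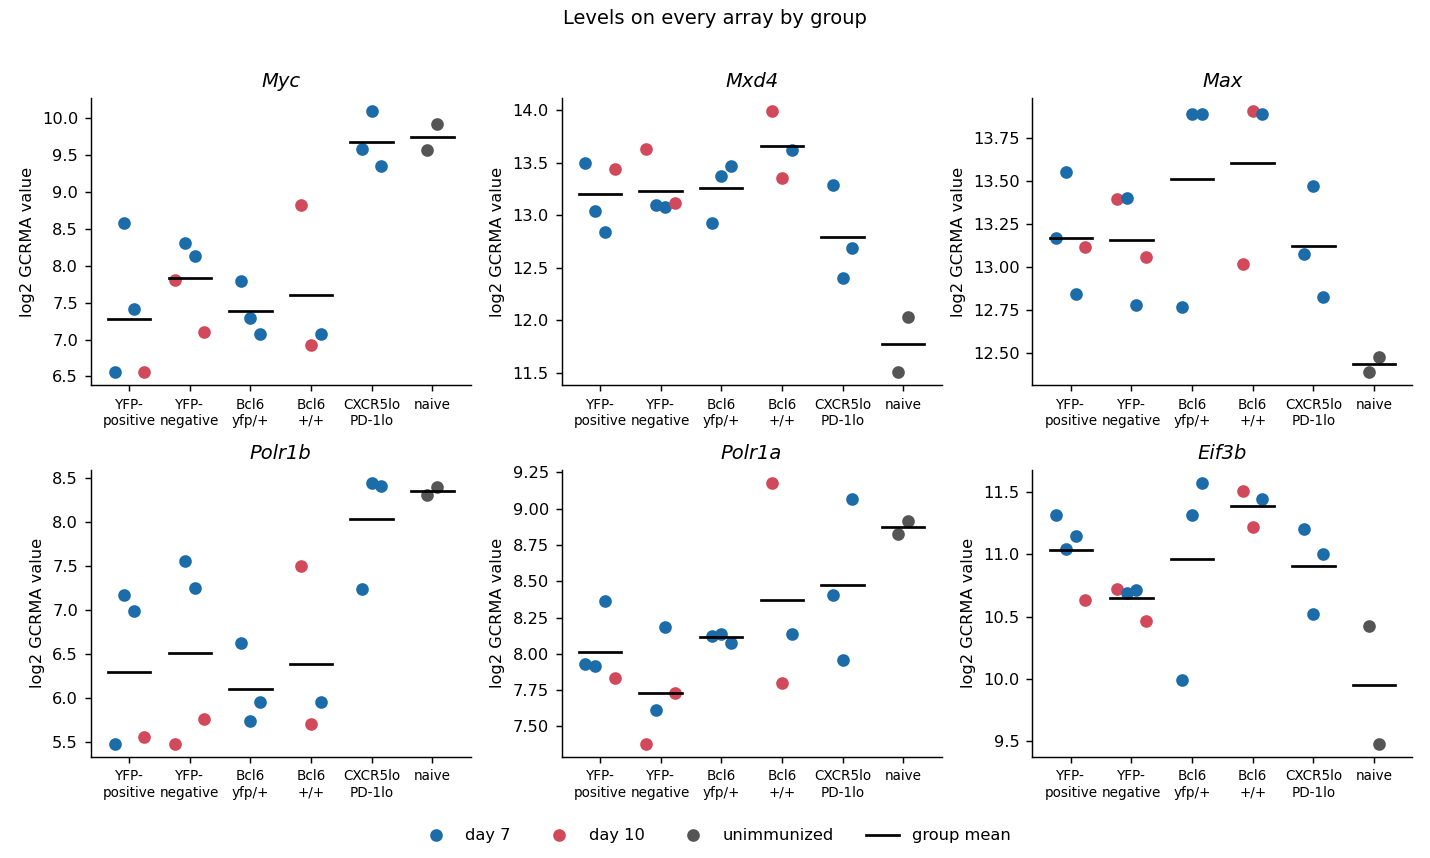
Log2 value of 6 genes on each array (points, coloured by day) with the group mean (bar), by group from YFP-positive on the left to naive on the right. Myc is between 6.56 and 8.82 on all arrays of the 4 Tfh groups and between 9.36 and 10.10 in CXCR5lo PD-1lo and naive cells, while Mxd4 is lowest in naive cells.

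The first question was how the genes differed between Tfh cells and the non-Tfh cells of the same response. In YFP-positive cells Myc was 5.28-fold lower than in CXCR5lo PD-1lo cells (log2 -2.40, SE 0.50, adjusted p = 0.00449, limma). In YFP-negative cells it was 3.58-fold lower (log2 -1.84, SE 0.50, adjusted p = 0.0355). The 2 comparisons share the 3 CXCR5lo PD-1lo arrays. The YFP-positive call held in each alternative run, with log2 values from -2.84 to -2.16 when each array was left out in turn. The YFP-negative call was lost with the replicate number as a block (log2 -1.60, SE 0.485, adjusted p = 0.077), with day as a covariate, on day 7 arrays alone and with no filter on low values. It was also lost without YFP-negative replicate 1 (adjusted p = 0.0757), 3 (0.0518) or 4 (0.12), and without CXCR5lo PD-1lo replicate 1 (0.0825), 2 (0.164) or 3 (0.0687). Within sets 1, 2 and 3, Myc differed by -3.02, -1.51 and -1.95 for YFP-positive arrays and by -1.78, -1.79 and -1.23 for YFP-negative arrays.

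Myc was the 1 member of 37 called between YFP-positive and CXCR5lo PD-1lo cells, where 10.6% of all genes were called (5.17% higher, 5.39% lower). It was also the 1 member called between YFP-negative and CXCR5lo PD-1lo cells, where 6.53% of all genes were (3.13% higher, 3.39% lower). By count alone the members therefore stayed below the background in both. Their differences nevertheless leaned 1 way: 31 of 37 were negative in YFP-positive cells, with a median of -0.43 against -0.07 for all genes, and 33 of 37 in YFP-negative cells, with a median of -0.71 against -0.09 for all genes. Every YFP-positive array was below every CXCR5lo PD-1lo array for 9 members (14.2% of all genes), and every YFP-negative array for 17 (11.2% of all genes). No member had all its YFP-positive or YFP-negative arrays above CXCR5lo PD-1lo cells, against 8.75% and 7.48% of all genes.

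The small subunit processome, which cuts and folds the RNA of the small ribosomal subunit, had differences in 1 direction. All 6 members had negative differences in both comparisons, with a median of -0.86 for YFP-positive and -0.95 for YFP-negative cells over CXCR5lo PD-1lo cells. Rrp12, which takes part in the late steps and export of the small subunit, was at 7.25, 7.51, 7.92 and 5.85 in YFP-positive cells and 6.47, 7.58, 7.52 and 5.27 in YFP-negative cells, against 8.07, 8.34 and 8.66 in CXCR5lo PD-1lo cells. Rrp9, a protein of the U3 RNP that starts processing, was at 6.48, 7.29, 7.53 and 6.18 in YFP-positive cells and 6.18, 7.28, 7.09 and 6.40 in YFP-negative cells, against 7.47, 8.02 and 8.54 in CXCR5lo PD-1lo cells. All YFP-negative arrays were below all CXCR5lo PD-1lo arrays for both genes, and for Rrp12 the YFP-positive arrays were too. The last YFP-positive array and the first and last YFP-negative arrays were from day 10, with Y-linked transcripts. They held the lowest values of their groups for both genes. All CXCR5lo PD-1lo arrays were from day 7, with Xist. Sizes without a block, here and for the other members, therefore do not separate group from day. Rrp12 on day 7 arrays was 7.25 to 7.92 in YFP-positive cells and 7.58 and 7.52 in YFP-negative cells. Neither gene passed the test without a block. The adjusted p of Rrp12 was 0.21 in YFP-positive cells and 0.103 in YFP-negative cells, and that of Rrp9 was 0.0842 in YFP-positive cells and 0.0726 in YFP-negative cells (limma).

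Polr1b encodes the second largest subunit of RNA polymerase I (chromosome 2, 129100970 to 129128060). It was at 5.48, 7.17, 6.99 and 5.56 in YFP-positive cells and at 5.48, 7.55, 7.25 and 5.77 in YFP-negative cells, against 7.24, 8.44 and 8.40 in CXCR5lo PD-1lo cells. Its log2 difference was -1.73 (SE 0.58, adjusted p = 0.074) in YFP-positive cells and -1.52 (SE 0.58, adjusted p = 0.169) in YFP-negative cells, which did not pass. Within sets 1, 2 and 3 it was lower each time, by -1.76, -1.27 and -1.41 for YFP-positive arrays and by -1.76, -0.89 and -1.16 for YFP-negative arrays.

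Blocked on the normalization set, so that arrays are compared inside a set, 16 members were called lower and 1 higher in YFP-positive than in CXCR5lo PD-1lo cells. The background was then 44.7% of all genes (22.7% higher, 22% lower). In YFP-negative cells 21 members were called lower and 2 higher, with a background of 30.5% (14.9% higher, 15.6% lower). Without the 4 nearly alike arrays of set 6 the block called 13 members lower and 0 higher in YFP-positive cells (background 37.2%, with 18.4% higher and 18.7% lower), and 19 lower and 0 higher in YFP-negative cells (background 24%, with 11.7% higher and 12.3% lower). For these 3 groups the replicate number joins the same arrays as the set and gives the same log2 differences, but a larger spread: for Myc in YFP-positive cells the replicate block gave an SE of 0.485, the set block one of 0.258. With the replicate block 1 member was called in YFP-positive cells (background 11.9%) and 0 in YFP-negative cells (background 6.15%). The counts of the blocks thus differ through the estimate of the spread, to which other groups contribute.

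By role, the block without set 6 called lower in YFP-positive cells Myc, Mxi1, all 6 processome members, Nop56 of the box C/D RNP, the large subunit factors Nle1, Noc2l and Gnl3, and Polr1b. Rrp9 was lower by log2 -0.96 (SE 0.155, adjusted p = 0.00439, limma), Rrp12 by -0.77 (SE 0.165, adjusted p = 0.0125) and Polr1b by -1.48 (SE 0.15, adjusted p = 0.000747). In YFP-negative cells the same fit called lower Myc, 5 of 6 processome members, all 3 box C/D members (the methyltransferase Fbl and its core partners Nop56 and Nop58), Gar1 of the 3 box H/ACA members, 6 of 10 large subunit factors, the scaffold protein Nolc1, and Polr1a and Polr1b. Rrp12 was lower there by -1.20 (SE 0.165, adjusted p = 0.00353) and Fbl by -0.71 (SE 0.15, adjusted p = 0.0166). None of the 4 translation members (Eif4a1, Eif4ebp1, Eif3b and Eif5a) was called in either comparison in that fit, and their medians were -0.05 and -0.21 without a block.

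Large subunit assembly factors all leaned the same way without a block, with 10 of 10 negative in both comparisons and a median of -0.48 for YFP-positive and -0.68 for YFP-negative cells. Their count includes Pes1, Bop1 and Wdr12, which form 1 complex, and Nop2, a methyltransferase of the large subunit RNA. Nle1, an assembly factor of the same subunit, was the most variable. It was at 3.35, 6.94, 7.05 and 6.57 in YFP-positive cells and 3.44, 7.79, 7.05 and 6.42 in YFP-negative cells, against 4.40, 8.84 and 8.59 in CXCR5lo PD-1lo cells. Its 3 lowest arrays were the 3 of set 1.

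Within each single set more members were lower than higher, though fewer in YFP-positive than in YFP-negative arrays. In sets 1, 2 and 3, 29, 26 and 22 of 37 members were lower in the YFP-positive than in the CXCR5lo PD-1lo array, where 49.5%, 48.1% and 48.9% of all genes were. In the YFP-negative arrays 33, 33 and 30 members were lower, where 53.9%, 45.9% and 48.6% of all genes were. The medians of the members were -0.31, -0.08 and -0.21 for YFP-positive arrays and -0.77, -0.22 and -0.41 for YFP-negative arrays. These are 1 array against 1 array in each set, with no test. In set 1, which gave the lowest median, the YFP-negative array is from day 10 and carries Y-linked transcripts, whereas the CXCR5lo PD-1lo array is from day 7 and carries Xist. This YFP-negative array also had the myeloid gene Lyz2 at 10.98 (2.30, 2.31 and 2.44 on the others of its group) and Jchain at 12.42. Lyz2 was 6.73 and 6.76 on the YFP-positive and CXCR5lo PD-1lo arrays of set 1. Sdc1, which like Jchain marks antibody cells, was 6.54 on the YFP-negative array of set 1, its highest value on all 19 arrays. It was 2.41 and 2.20 on the YFP-positive and CXCR5lo PD-1lo arrays of the set. Xbp1 and Irf4 were not highest on that YFP-negative array within the set. Itgam, Csf1r and Tnfrsf17 were near the floor on all arrays of the set. The part of these genes was not tested.

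The mean log2 level of the 33 members outside the MYC network gives the same picture by array. It was 11.16, 11.22, 11.14 and 10.40 in YFP-positive cells and 10.65, 11.16, 10.96 and 10.35 in YFP-negative cells, against 11.54, 11.46 and 11.42 in CXCR5lo PD-1lo cells. Bcl6yfp/+ cells had 10.57, 11.35 and 11.36, Bcl6+/+ cells 11.60, 11.28 and 11.37, and naive cells 11.08 and 10.93. The CXCR5lo PD-1lo array was the highest of its set in sets 1, 2 and 3, and the naive array was the highest of its set in sets 4 and 5.

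**Figure D2:**
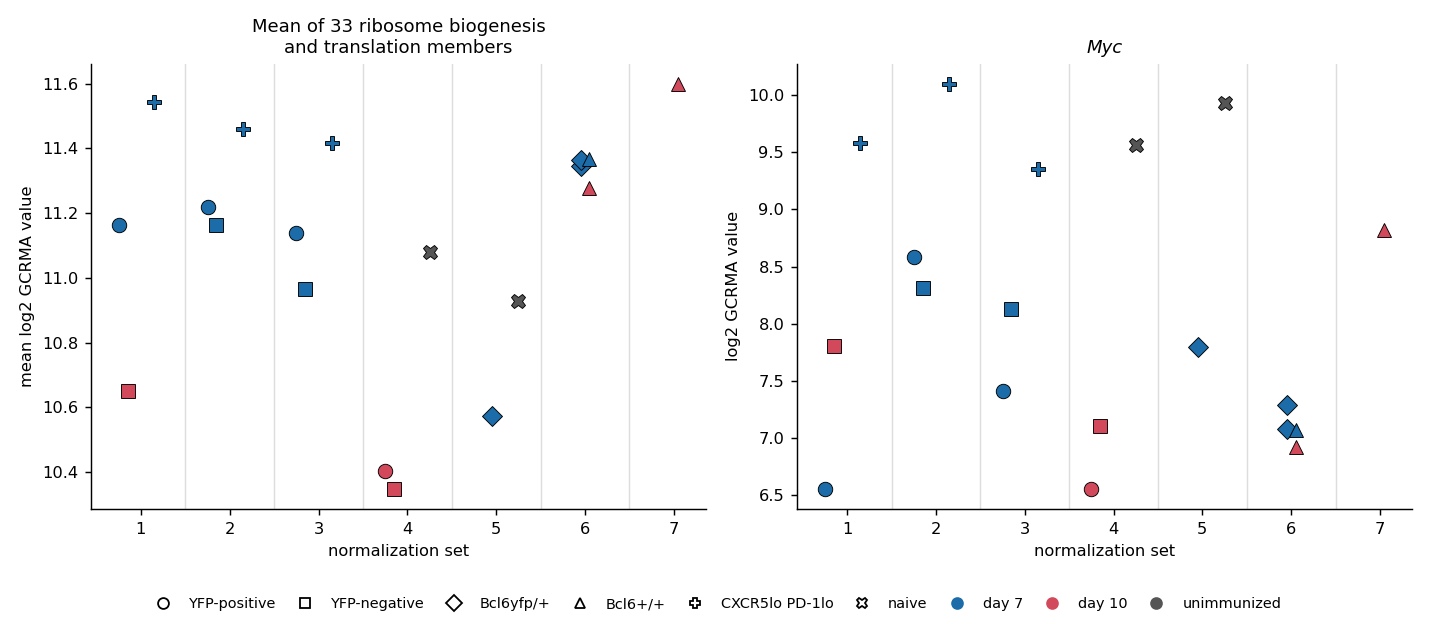
Mean log2 level of the 33 members outside the MYC network (left) and log2 level of Myc (right) on each array, by normalization set, with the group as symbol and the day as colour. In sets 1 to 3 the CXCR5lo PD-1lo array lies above both YFP arrays, and in sets 4 and 5 the naive array lies above the Tfh arrays, in both panels.

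Some markers of other cell types moved with these comparisons. The summed level (log2) of 5 CD8 T and NK genes was 6.55 to 7.23 in YFP-positive cells and 6.59 to 7.54 in YFP-negative cells, against 11.6 to 12.3 in CXCR5lo PD-1lo cells, with Nkg7 at 10.4 to 11.3 in CXCR5lo PD-1lo cells and at most 2.32 on all YFP arrays. Klrd1 differed likewise, whereas Cd8a and Ncr1 were near the floor in all 3 groups and Cd8b1 overlapped between them. Of 5 B cell genes only Cd79b differed, at most 2.81 on the YFP arrays, against 5.26 to 5.36 in CXCR5lo PD-1lo cells, and the defining genes Cd79a, Pax5, Blk and Ms4a1 were near the floor in all 3 groups. Jchain, an antibody-cell gene, was 8.45 on YFP-positive replicate 1 and 12.4 on YFP-negative replicate 1, and 10.5, 7.91 and 7.72 in CXCR5lo PD-1lo cells. The summed level of 19 cell cycle genes was 15.3 to 17.3 in YFP-positive cells and 14.5 to 16.0 in YFP-negative cells, against 14.7 to 16.5 in CXCR5lo PD-1lo cells. Over CXCR5lo PD-1lo cells all 19 were positive in YFP-positive cells, with 3 that rose, whereas 7 were positive and 12 negative in YFP-negative cells. The part of these genes in the members' differences was not tested.

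The rest of the ribosome pathway was read from further lists. Of 77 other ribosome biogenesis genes 6 fell and 0 rose in YFP-positive cells over CXCR5lo PD-1lo cells (5.39% of all genes fell), with 70 negative and a median of -0.39. Among them were Ppan, a large subunit factor (log2 -1.34, SE 0.37, adjusted p = 0.0266), and Nob1, the endonuclease that makes the final cut of the small subunit RNA (log2 -1.21, SE 0.29, adjusted p = 0.012). In YFP-negative cells 3 fell and 1 rose (3.39% of all genes fell and 3.13% rose), with 73 negative and a median of -0.46. The small subunit factor Bysl (log2 -1.89, SE 0.51, adjusted p = 0.033), Wdr46 (-1.75, SE 0.50, adjusted p = 0.0456) and Wdr74 (-0.94, SE 0.27, adjusted p = 0.0456) fell, while the helicase gene Ddx24 rose by 0.67 (SE 0.17, adjusted p = 0.0258). The 43 cytosolic ribosomal protein genes had medians of -0.11 and -0.10, close to the medians of all genes given above, with 42 of 43 negative each time. The share of all genes with a negative difference is not given here.

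The second question was how immunized cells differed from naive cells, all comparisons sharing the same 2 naive arrays. All genes shifted here: the median log2 difference over all genes was 0.39 in YFP-positive, 0.38 in YFP-negative, 0.50 in the pooled Tfh cells of both Bcl6 genotypes and 0.46 in CXCR5lo PD-1lo cells. It was 0.03, -0.00, -0.00 and 0.02 when blocked on the normalization set, so values without the block are read against the shift. In that block the comparison with naive cells rests on 1 naive array each. For the YFP groups it sets naive replicate 1 against replicate 4 of both groups, which are day 10 arrays and the lowest of their groups in the mean level of the 33 members (10.40 and 10.35). For the Bcl6 genotypes it sets naive replicate 2 against Bcl6yfp/+ replicate 1. CXCR5lo PD-1lo and naive cells share no set, and their blocked difference passes through the YFP groups. The naive arrays add nothing to the spread of the set block. Its SE and adjusted p against naive cells therefore hold no scatter between naive arrays.

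Myc was 5.54-fold lower in YFP-positive than in naive cells (log2 -2.47, SE 0.57, adjusted p = 0.00394), 3.76-fold lower in YFP-negative cells (log2 -1.91, SE 0.57, adjusted p = 0.0249) and 4.76-fold lower in Tfh cells of both Bcl6 genotypes (log2 -2.25, SE 0.54, adjusted p = 0.00465). In CXCR5lo PD-1lo cells the difference was -0.07 (SE 0.60, adjusted p = 0.951). The YFP-positive call was lost without naive replicate 2 (adjusted p = 0.0522), as was the call over both genotypes (0.0644), which was also lost without set 6 (log2 -1.44, adjusted p = 0.126). The YFP-negative call was lost without YFP-negative replicate 4 (adjusted p = 0.0562) or naive replicate 1 (0.0785) or 2 (0.19), with the replicate number as a block (log2 -1.55, adjusted p = 0.0587), with day as a covariate, on day 7 and naive arrays alone and with no filter. Within set 4 Myc was lower by -3.01 in the YFP-positive and by -2.46 in the YFP-negative array than in the naive array, and within set 5 by -2.13 in the Bcl6yfp/+ array.

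Mxd4 rose over naive cells in every immunized group. It was 2.71-fold higher in YFP-positive cells (log2 1.44, SE 0.30, adjusted p = 0.00192), 2.76-fold higher in YFP-negative cells (log2 1.46, SE 0.30, adjusted p = 0.00208), 3.22-fold higher in Tfh cells of both Bcl6 genotypes (log2 1.69, SE 0.28, adjusted p = 0.000302) and 2.04-fold higher in CXCR5lo PD-1lo cells (log2 1.03, SE 0.32, adjusted p = 0.0462). The other 2 probe sets of Mxd4 that passed the filter gave the same direction in all 4 comparisons. The calls in YFP-positive cells and in both genotypes held in each alternative run. The YFP-negative call was lost without naive replicate 1 (adjusted p = 0.0514), and the CXCR5lo PD-1lo call in 14 of the 19 runs that each left out 1 array, with log2 values from 0.76 to 1.29 and adjusted p up to 0.24. Max rose 2.18-fold in Tfh cells of both Bcl6 genotypes (log2 1.12, SE 0.33, adjusted p = 0.0155), a call lost without naive replicate 1 (adjusted p = 0.101) or 2 (0.0865) and also when blocked on the set (log2 0.29, adjusted p = 0.22) or without set 6 (log2 0.46, adjusted p = 0.326). Its log2 differences were 0.73 in YFP-positive, 0.72 in YFP-negative and 0.69 in CXCR5lo PD-1lo cells, with adjusted p of 0.125, 0.155 and 0.217.

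The count of members called against naive cells was 4 in YFP-positive cells (2 higher, 2 lower), where 28.8% of all genes were called (22.4% higher, 6.44% lower). It was 3 in YFP-negative cells (1 higher, 2 lower), where 21.1% were called (16.5% higher, 4.62% lower). It was 6 in both Bcl6 genotypes (4 higher, 2 lower), where 34.3% were called (28.4% higher, 5.9% lower), and 1 in CXCR5lo PD-1lo cells (higher), where 11.9% were called (10.3% higher, 1.57% lower). With the replicate number as a block Dkc1 (log2 0.84, adjusted p = 0.0412) and Ddx21 (log2 0.73, adjusted p = 0.0384) were called higher as well in both Bcl6 genotypes. In each comparison a smaller share of the members than of all genes was called higher. The medians of the members were 0.03, -0.11, 0.37 and 0.53 in the same order of groups, so the 3 Tfh medians were below the shift of all genes and the CXCR5lo PD-1lo median slightly above it. Blocked on the set they were -0.54, -0.88, -0.21 and -0.31, so that the CXCR5lo PD-1lo median turned negative, with 28 of 37 members below 0.

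Polr1b fell against naive cells, where it was at 8.31 and 8.39. It was 4.13-fold lower in YFP-positive cells (log2 -2.05, SE 0.66, adjusted p = 0.0291) and 4.30-fold lower in Tfh cells of both genotypes (log2 -2.10, SE 0.62, adjusted p = 0.0171), with single values of 6.62, 5.74 and 5.96 in Bcl6yfp/+ and 7.49, 5.70 and 5.96 in Bcl6+/+ cells. The first call was lost without YFP-positive replicate 1 (adjusted p = 0.0757) or 4 (0.0585), and both were lost without naive replicate 1 (0.108 and 0.0892) or 2 (0.151 and 0.113). The YFP-positive call was also lost with no filter, and the call over both genotypes without set 6 (log2 -1.29, adjusted p = 0.284). Polr1a, the gene of the largest polymerase I subunit, was at 7.38, 7.61, 8.19 and 7.73 in YFP-negative cells, against 8.83 and 8.91 in naive cells. It fell 2.21-fold (log2 -1.14, SE 0.35, adjusted p = 0.0297). This call was lost without YFP-negative replicate 1 (adjusted p = 0.0744) or 2 (0.0619) or naive replicate 1 (0.107) or 2 (0.178) with day as a covariate, on day 7 and naive arrays alone and with the mean of its probe sets, and its other 2 probe sets that passed the filter gave -0.50 and 0.41.

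Eif3b, a subunit of the initiation factor that loads the small subunit, rose over naive cells in part of the groups. It was at 11.32, 11.05, 11.15 and 10.63 in YFP-positive cells, against 10.42 and 9.48 in naive cells. It rose 2.12-fold (log2 1.09, SE 0.37, adjusted p = 0.0387), a call lost without YFP-positive replicate 1 (adjusted p = 0.0885), 2 (0.0681) or 3 (0.0735) or naive replicate 2 (0.439), and blocked on the set (log2 0.32) or after quantile normalization (log2 0.55). In Tfh cells of both genotypes it rose 2.34-fold (log2 1.22, SE 0.35, adjusted p = 0.0144), lost without naive replicate 2 (adjusted p = 0.267), blocked on the set (log2 0.45, adjusted p = 0.24) and without set 6 (log2 0.80, adjusted p = 0.122). Both Eif3b calls were also lost with set and day together, on day 7 and naive arrays alone and with the compared groups alone, and the YFP-positive one with no filter. Eif5a, a factor that keeps elongating ribosomes moving, rose 1.58-fold in both genotypes (log2 0.66, SE 0.23, adjusted p = 0.0399), was lost in 7 of the 19 runs that each left out 1 array (adjusted p up to 0.173), and had 0.15 blocked on the set, 0.18 after quantile normalization and 0.41 without set 6, none of them called.

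With the set as a block the members leaned below naive cells in the Tfh groups. The counts below come from a spread that holds no scatter between naive arrays. In YFP-positive cells 16 members were called lower and 2 higher, with a background of 46.9% (25% higher, 21.9% lower). In YFP-negative cells 21 were called lower and 2 higher, with a background of 41.6% (22.3% higher, 19.3% lower). In both Bcl6 genotypes 9 were called lower and 1 higher (background 24.7%, 12.1% higher and 12.6% lower), and in CXCR5lo PD-1lo cells 5 lower and 2 higher (background 23.3%, 13.8% higher and 9.52% lower). Without set 6 the block called 15 lower and 2 higher in YFP-positive (background 40.6%), 18 lower and 2 higher in YFP-negative (35.7%) and 4 lower and 2 higher in CXCR5lo PD-1lo cells (17.3%). The 2 called higher were Max and Mxd4 each time.

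In the block without set 6 all 6 processome members were lower than in naive cells in both YFP groups. Only effect sizes are given, since 1 naive array is set against the day 10 replicate 4 arrays. Rrp12 differed from naive cells by log2 -1.50 in YFP-positive cells and -1.92 in YFP-negative cells, and Utp20 by -1.28 and -1.46. Polr1b differed by -2.75 and -2.54. Without a block the 6 processome members were also all negative in both YFP groups, with medians of -0.32 and -0.42. Of these 0 were called (limma), and Rrp9 alone had an unadjusted p under 0.05 in each. On single arrays, 31 of 37 members were lower in YFP-positive replicate 4 than in naive replicate 1 (48.1% of all genes), 31 in YFP-negative replicate 4 (50.3%) and 25 in Bcl6yfp/+ replicate 1 than in naive replicate 2 (45.7%).

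**Figure D3:**
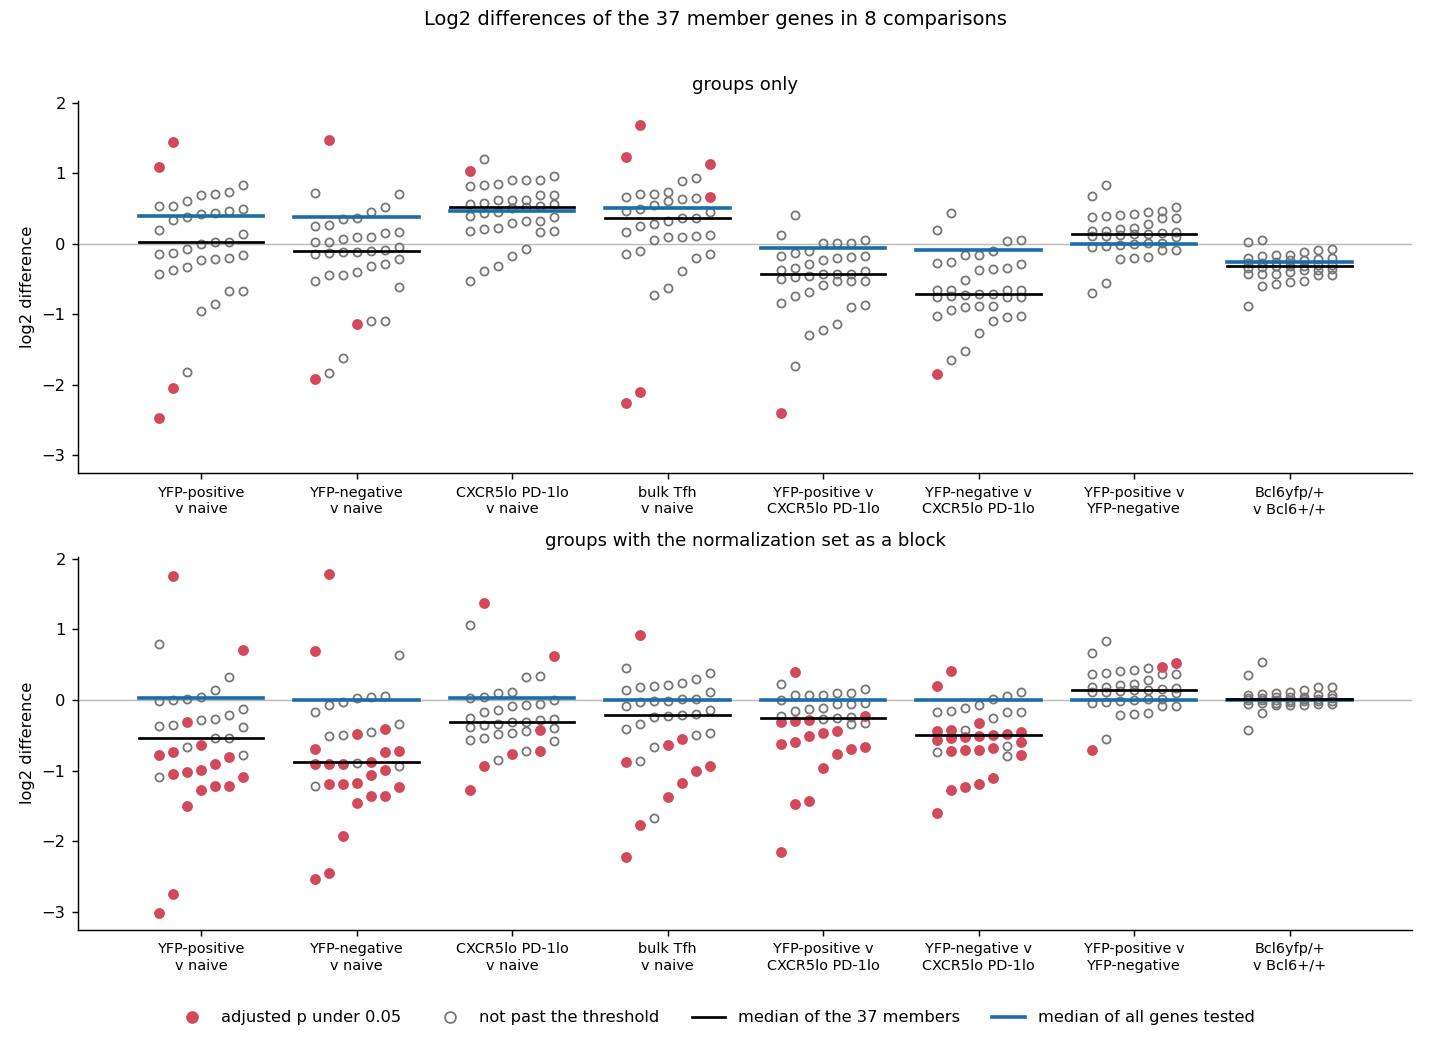
Log2 difference of each of the 37 members in 8 comparisons, upper panel with groups alone and lower panel blocked on the normalization set, red where the adjusted p was under 0.05. Black bars mark the member median and blue bars the median of all genes: against CXCR5lo PD-1lo cells the member medians are -0.43 and -0.71 without the block and -0.25 and -0.49 with it.

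Of 18 other genes reported as MYC targets, 3 rose over naive cells in YFP-positive, 3 in YFP-negative, 5 in both-genotype and 2 in CXCR5lo PD-1lo cells, close to the 22.4%, 16.5%, 28.4% and 10.3% of all genes that rose, and none was called lower. Odc1, the first enzyme of polyamine synthesis, rose over naive cells by 2.05 (SE 0.32, adjusted p = 0.000137) in YFP-positive, 1.80 (SE 0.32, adjusted p = 0.000581) in YFP-negative and 2.31 (SE 0.30, adjusted p = 2.19e-05) in both Bcl6 genotypes, and by 1.35 (SE 0.34, adjusted p = 0.0144) in CXCR5lo PD-1lo cells. Tfrc, the transferrin receptor, rose by 1.43, 1.17 and 1.22 in the first 3. Bcat1, a branched-chain amino acid enzyme, rose in all 4 from a naive mean of 2.85, which is near the floor of the scale, so its size depends on the floor. Srm, the spermidine synthase, fell in YFP-negative cells over CXCR5lo PD-1lo cells (log2 -1.80, SE 0.50, adjusted p = 0.0371). Ubtf, the activator of polymerase I at the ribosomal RNA genes, rose over naive cells by 1.29, 1.22, 1.26 and 1.35 in YFP-positive, YFP-negative, both-genotype and CXCR5lo PD-1lo cells, and the cap-binding factor Eif4e by 1.48, 1.06, 1.62 and 1.10. Eif4e is 1 of 48 other translation factor genes, of which 5 rose and 2 fell in YFP-positive, 2 rose and 0 fell in YFP-negative, 9 rose and 1 fell in both-genotype, and 1 rose and 0 fell in CXCR5lo PD-1lo cells (limma). Those that fell were Eef2k, the kinase of elongation factor eEF2 (-1.93 in YFP-positive and -1.39 in both-genotype cells), and Eif4e3, a relative of Eif4e (-0.89 in YFP-positive cells).

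Some marker genes moved with the comparisons to naive cells too. The summed level of the CD8 T and NK genes was 6.55 to 7.23 in YFP-positive cells and 6.59 to 7.54 in YFP-negative cells, against 9.94 to 11.6 in naive cells. Klrd1 carried this difference (2.03 to 3.04 on the YFP arrays, 11.45 and 9.81 in naive cells), with Nkg7, Cd8a and Ncr1 near the floor in all 3 groups and Cd8b1 overlapping. That of 5 plasma cell genes was 12.7 to 13.3 in YFP-positive cells and 12.8 to 13.8 in YFP-negative cells, against 9.32 to 9.68 in naive cells. Here Irf4 and Xbp1, which activated T cells also express, were higher on every YFP array, while Tnfrsf17 was near the floor and Jchain and Sdc1 overlapped. Of 19 cell cycle genes 18 rose in YFP-positive, 10 in YFP-negative, 15 in both-genotype and 8 in CXCR5lo PD-1lo cells. Their part in the members' differences was not tested.

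The third question was whether YFP-positive and YFP-negative Tfh cells differed. Of 37 members 0 were called (limma), 1 had an unadjusted p under 0.05, and 0.121% of all genes were called (0.0806% lower). Mxi1 was that member (log2 -0.70, SE 0.21, adjusted p = 0.222), at 10.22, 10.68, 10.34 and 10.83 in YFP-positive cells and 11.61, 11.07, 10.79 and 11.42 in YFP-negative cells, and these groups overlapped. Myc differed by -0.56 (SE 0.47). The 3 box H/ACA members, among them the pseudouridine synthase gene Dkc1, were all higher in YFP-positive cells (median 0.52), as were the 3 box C/D members (median 0.37), and 26 of 37 members were positive (median 0.14 against 0.00 for all genes). With the set as a block 3 were called, where 15.6% of all genes were (8.38% higher, 7.18% lower): Mxi1 (-0.70, adjusted p = 0.0241), Fbl (0.46, adjusted p = 0.0373) and Gar1 (0.52, adjusted p = 0.0321). Without set 6 that fit called 0 members, and 2.7% of all genes. In sets 1 to 4, 29, 24, 29 and 22 of 37 members were higher in the YFP-positive array, and set 1 also differs in day.

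The fourth question was whether the reporter allele itself changed these genes. Between Bcl6yfp/+ and Bcl6+/+ cells 0 of 37 members were called (limma), 0 had an unadjusted p under 0.05, and 0% of all genes were called. The members had a median of -0.31 against -0.26 for all genes. With the set as a block the median was 0.02, and 0 members and 0.0403% of all genes were called. In set 6, where 2 arrays of each genotype were normalized alike, 18 members were lower and 19 higher in Bcl6yfp/+ cells. The blocked fit compares the genotypes on these same arrays. They were nearly alike, and the closest pair (0.144) joined opposite genotypes, so little difference could appear there. Day differs as well, with all Bcl6yfp/+ arrays from day 7 and Bcl6+/+ replicates 1 and 2 from day 10. These counts therefore cannot decide the question.

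For the day of sorting, 0 of 37 members were called between day 10 and day 7 (limma, group and day in 1 model), where 0.232% of all genes were called (0.181% higher, 0.0504% lower). At an unadjusted p under 0.05 there were 12 members, all lower at day 10. Without set 6 the count called was 5, and without Bcl6+/+ replicate 3 it was 3. The share of all genes is not given for the unadjusted count or for these runs, so they are not read as particular to the members. Of the 37, 34 were negative with a median of -0.39 against -0.14 for all genes. The lowest were Rrp12 (-1.03, adjusted p = 0.366), Nhp2 of the box H/ACA RNP (-0.94, adjusted p = 0.203) and Nop16, a large subunit factor (-0.87, adjusted p = 0.178). By group the median was -0.76 in YFP-positive, -0.44 in YFP-negative and 0.03 in Bcl6+/+ cells, and the interactions called 0 members. With the set as a block the median was -0.20 and 0 were called. In the YFP groups day coincides with Y-linked against Xist transcripts, so that these cannot be told apart there. Among the sets with YFP arrays, set 1 alone holds both days.

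**Figure D4:**
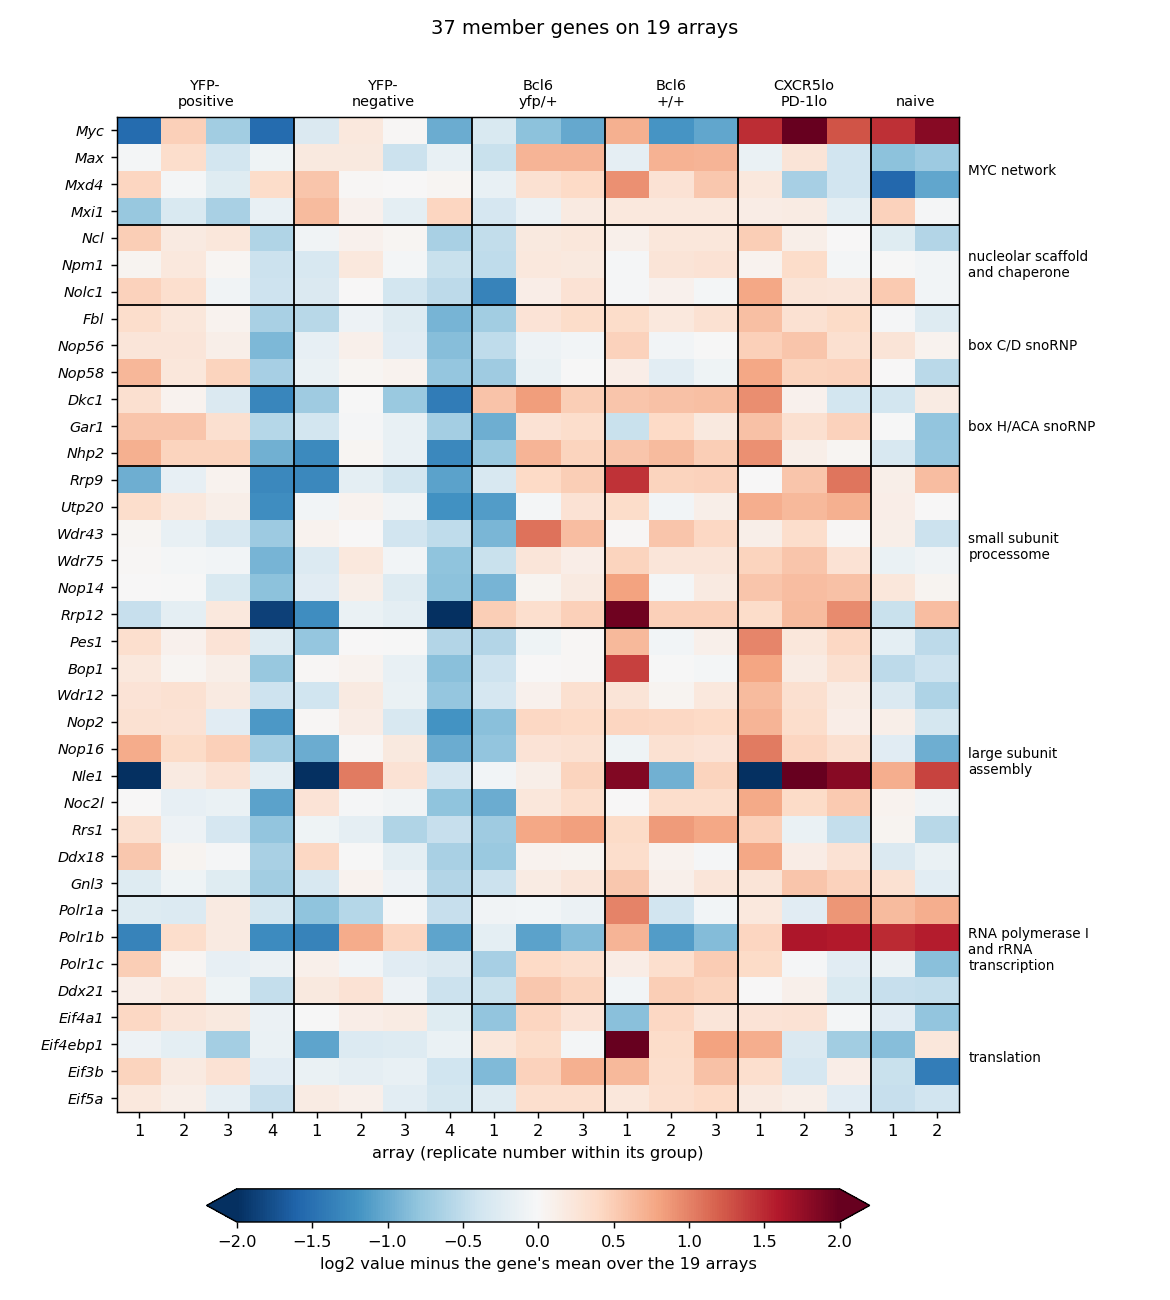
Log2 value minus the gene's mean over 19 arrays for 37 members (rows, by role) on every array (columns, by group), with colours capped at 2 either way. Most ribosome biogenesis rows are lower on replicate 4 of both YFP groups, and the CXCR5lo PD-1lo columns are above the mean for most rows.

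Across the 37 members, the highest group mean was in CXCR5lo PD-1lo cells for 15 and in Bcl6+/+ cells for 15, and in naive cells for 4. The lowest was in naive cells for 14, in YFP-negative cells for 13, in YFP-positive cells for 7 and in Bcl6yfp/+ cells for 3. These means cross the normalization sets, and within sets 4 and 5 the naive array was above the Tfh array for 31, 31 and 25 of 37 members.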

How the data were processed

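RNA of 19 sorted samples was amplified and hybridised to Affymetrix arrays, 1 array a sample. The deposited values are log2 expression per probe set, made by the authors with GCRMA per the submitters' processing notes; no version is recorded there. Its floor lies near log2 2. Array medians ran from 2.40 to 2.99, and the number of arrays limits the precision. RNA was taken with TRIzol, or for both Bcl6 genotypes and naive replicate 2 with TRIzol or an RNeasy kit, per the labels' protocols.

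Of 45101 probe sets, those with 1 symbol in the platform annotation were used, matched by Entrez identifier to RefSeq genes of GRCm38.p6. Each gene kept its probe set with the highest mean, and genes at log2 4 or more on at least 2 arrays were tested (9928). Of the 37 members kept, 22 had several such probe sets. Groups were fitted on all 19 arrays in 1 model by limma 3.58.1 under R 4.3.3 with moderated statistics, Benjamini-Hochberg adjustment ran over all genes of a comparison, with 0.05 as the threshold of the adjusted p for a call. Errors of differences are standard errors (SE) and errors of levels standard deviations (SD). The fit was checked on simulated data. Columns were put in 1 normalization set where their ranked values lay within a mean distance of 0.06 log2. The largest distance inside a set was 0.0482 and the smallest across sets 0.0666. The labels do not say that replicates are separate animals, so the p-values reflect how far these samples scatter, possibly for technical reasons alone.

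Same-numbered samples deviated together from their group means, with correlations of 0.45 to 0.87 (YFP-positive and YFP-negative, 4 pairs), 0.39 to 0.68 (YFP-positive and CXCR5lo PD-1lo, 3), 0.27 to 0.39 (YFP-negative and CXCR5lo PD-1lo, 3) and 0.57 to 0.64 (Bcl6yfp/+ and Bcl6+/+, 3). Differently numbered samples reached 0.25, 0.38, 0.39 and 0.55 in the same order, so that the number hardly sets the pairs apart in the last 2. The naive numbers pair nothing. The number was used as a block in an alternative fit and not in the main fit. In the YFP and CXCR5lo PD-1lo groups it is also the normalization set, so the correlations cannot tell pairing from shared normalization. Number 1 joins a day 7 YFP-positive sample with Xist to a day 10 YFP-negative sample with Y-linked transcripts. Numbers 1 and 2 join day 7 Bcl6yfp/+ to day 10 Bcl6+/+ samples.

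The members and gene lists were chosen with earlier results of these data known. Per-array values were given for the MYC network and, in each comparison, for called members up to 4 in each direction, and for further members chosen after their values were seen (Rrp12, Rrp9, Nle1 and, where it missed the test, Polr1b). Of the other lists up to 3 called genes in each direction could be named. Alternatives were a replicate block, a set block, quantile normalization of all columns, day as a covariate, day 7 arrays alone, the compared groups alone, other filters, the mean of a gene's probe sets, a trend in the prior, and leaving out each array. Added after seeing the data were set and day together, leaving out set 6, and the set block without set 6.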

Additional observations from a re-analysis of the deposited data

Results flagged for a closer look

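In groups of 4 arrays, 1 array stood far from the other 3 in 11 of 74 group and gene pairs tested, its gap to the nearest, as a share of the group's range, exceeding Dixon's 95% critical value. Chance flags about 1 in 20, but the pairs share the same arrays, and both groups mix day 7 and day 10. The share of all genes flagged is not given, so the count is not read as particular to the members. YFP-positive replicate 4, from day 10, was low for 5 genes: Nop56 at 12.316 (others 13.324 to 13.456), Nhp2 at 9.69 (others 11.091 to 11.36), Utp20 at 8.95 (others 10.305 to 10.548), Wdr75 at 10.785 (others 11.658 to 11.728) and Noc2l at 9.76 (others 10.672 to 10.842). YFP-negative replicate 4, also from day 10, was low for Utp20 at 8.976 (others 10.114 to 10.268) and Eif3b at 10.465 (others 10.692 to 10.726). YFP-negative replicate 1 was high for Mxd4 at 13.636 (others 13.077 to 13.116) and low for Eif4ebp1, the inhibitor of cap-binding eIF4E, at 5.896 (others 6.679 to 6.828). YFP-positive replicate 1 was low for Nle1 at 3.348 (others 6.57 to 7.053), and YFP-positive replicate 3 for Eif4ebp1 at 6.274 (others 6.758 to 6.857). The cause was not tested.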

How the results depend on the processing

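The count of members called moved with the handling of the differently normalized columns and with the arrays left out. The share of all genes called is given above for the main fit and for the set block with and without set 6. It is not given for most other settings or for the runs that leave out 1 array. Those counts are therefore not read as particular to the members. Against naive cells, the YFP-positive count of 4 was 18 with the set as a block, 17 with the block but without set 6, 16 with set and day together, 12 with quantile normalization, 7 without set 6 and 2 with no filter. The YFP-negative count of 3 was 23, 20, 14 and 14 in the first 4 of these settings, and 1 with day as a covariate or on day 7 and naive arrays alone. The count of 6 in both Bcl6 genotypes was 10 with the set block or day as a covariate, 11 with set and day together, 3 with the compared groups alone and 1 without set 6. The CXCR5lo PD-1lo count of 1 was 7 with the set block, 6 with the block but without set 6, 5 with set and day together, 3 with day as a covariate, 2 without set 6, and 0 with quantile normalization, the compared groups alone or no filter. Against CXCR5lo PD-1lo cells, the YFP-positive count of 1 was 17 with the set block or with set and day together, 13 with the block but without set 6, 7 with quantile normalization, 3 with the mean of probe sets or without set 6, and 2 with the stricter filter at log2 6 or with a trend in the prior. The YFP-negative count of 1 was 23 with the set block, 21 with set and day together, 19 with the block but without set 6, 8 with quantile normalization, 2 with a trend, and 0 with the replicate block, day as a covariate, day 7 arrays alone or no filter. The YFP-positive against YFP-negative count of 0 was 3 with the set block and 1 with set and day together. The count of 0 between genotypes was 1, and that of 0 between days was 5, without set 6. The cause was not tested, beyond the changed spread of the blocks and the fewer arrays.

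Leaving out each array in turn, the counts ran from 1 to 5 (YFP-positive against naive), 0 to 4 (YFP-negative), 1 to 11 (both genotypes), 0 to 4 (CXCR5lo PD-1lo), 1 to 4 (YFP-positive against CXCR5lo PD-1lo), 0 to 4 (YFP-negative against CXCR5lo PD-1lo), 0 to 0 (YFP-positive against YFP-negative), 0 to 0 (genotypes) and 0 to 3 (day). The highest counts for both genotypes, for CXCR5lo PD-1lo cells and for both comparisons against CXCR5lo PD-1lo cells came without Bcl6yfp/+ replicate 1, and the count of 3 for day without Bcl6+/+ replicate 3. The lowest counts against naive cells came without naive replicate 2 (YFP-positive and both genotypes) or 1 (YFP-negative). Over 42 results on single genes and 1313 alternative values, 1197 kept their side of the threshold, 92 lost a call and 24 gained one. Of called values 0 turned their sign. Values that were not called could turn their sign and still count among the 1197. Mxi1 in YFP-negative against naive cells, for example, ran from log2 -0.47 to 0.27. The replicate block changed no call but those named in the report and in the counts above, where it gave 8 against 6 for both genotypes and 2 against 3 for YFP-negative against naive cells.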
